A study of Ovis aries with 12 samples.

Results

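The genes described here encode the machinery that releases neurotransmitter from synaptic vesicles: the SNARE proteins of the VAMP, syntaxin (STX) and SNAP families, the syntaxin-binding proteins (STXBP), the synaptotagmins (SYT), the synapsins (SYN), the SV2 vesicle proteins, the RAB3 GTPases, the UNC13 and RIMS priming factors, and the scaffolds bassoon (BSN) and piccolo (PCLO). They were selected by a rule on gene symbols, set with earlier results of these data known, and 69 of the 33609 genes in the table matched. The animals were 12 adult ewes of the Ile-de-France breed, 6 of them controls and 6 exposed to chronic stress. Dorsal and ventral hippocampus were sampled from each, and each library held RNA of 2 ewes of one condition mixed in equal parts. The 4 groups were dorsal control, dorsal stress, ventral control and ventral stress, with 3 libraries each, and no genotype, drug or time point distinguished them. The labels do not say how the stress was applied, and they use DG as short for dorsal without stating whether the dentate gyrus alone was taken.

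At a synapse, vesicles are held near the active zone by RAB3 and RIM proteins and by the large scaffolds bassoon and piccolo. UNC13 proteins then open syntaxin so that it can pair with SNAP25 and with VAMP2 on the vesicle, and the resulting SNARE complex pulls the membranes together. Synaptotagmins trigger fusion when calcium enters. Several steps are served by families of related proteins that differ between types of neuron, and some members of the same families serve membrane traffic in every cell, such as STX5 and STX18 between the endoplasmic reticulum and the Golgi apparatus.

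Library totals lay between 12254743 and 53775720 counts, so that 1 CPM (TMM-normalized count relative to library size) stood for 12.2 to 50.8 counts. The 3 members STX11, STX19 and SYT8 had at most 0.61, 0.547 and 0.116 CPM in any library and did not pass the filter on low counts, which left 66 members among 17806 genes tested. Broad neuronal markers were present in every library, with NEFL at 634 to 1064 CPM, while the interneuron gene SST was listed at 0 in all of them. The first principal component of the deviations from group means held 66.1% of the variance within groups and is called the within-group axis here, with ventral control 1 at one end (-0.45) and ventral control 3 at the other (0.52). P-values treat the 12 libraries as independent of each other, although both regions came from the same ewes, and they rest on pools, not on single animals.

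The first comparison set the dorsal against the ventral hippocampus. Over both conditions 6 of the 66 tested members (9.09%) were lower in dorsal tissue and 0 were higher, against 4.51% of all genes tested that differed in either direction (edgeR quasi-likelihood test, Benjamini-Hochberg adjusted p under 0.05, all 12 libraries in 1 fit). The 6 were the syntaxin STX1A, the GTPase RAB3B, the priming factors UNC13B and UNC13C, the RIM protein RIMS3 and the synaptotagmin SYT9. Among all genes 1.44% were higher and 3.07% lower in dorsal tissue. The median log2 fold change of dorsal over ventral was -0.07 over the members and -0.02 over all genes, and the median size of the change was 0.18 and 0.19. For 49 of the 66 members the log2 fold change lay between -0.5 and 0.5. At an unadjusted p under 0.05 there were 19 members (28.8%) against 13.7% of all genes.

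**Figure D1:**
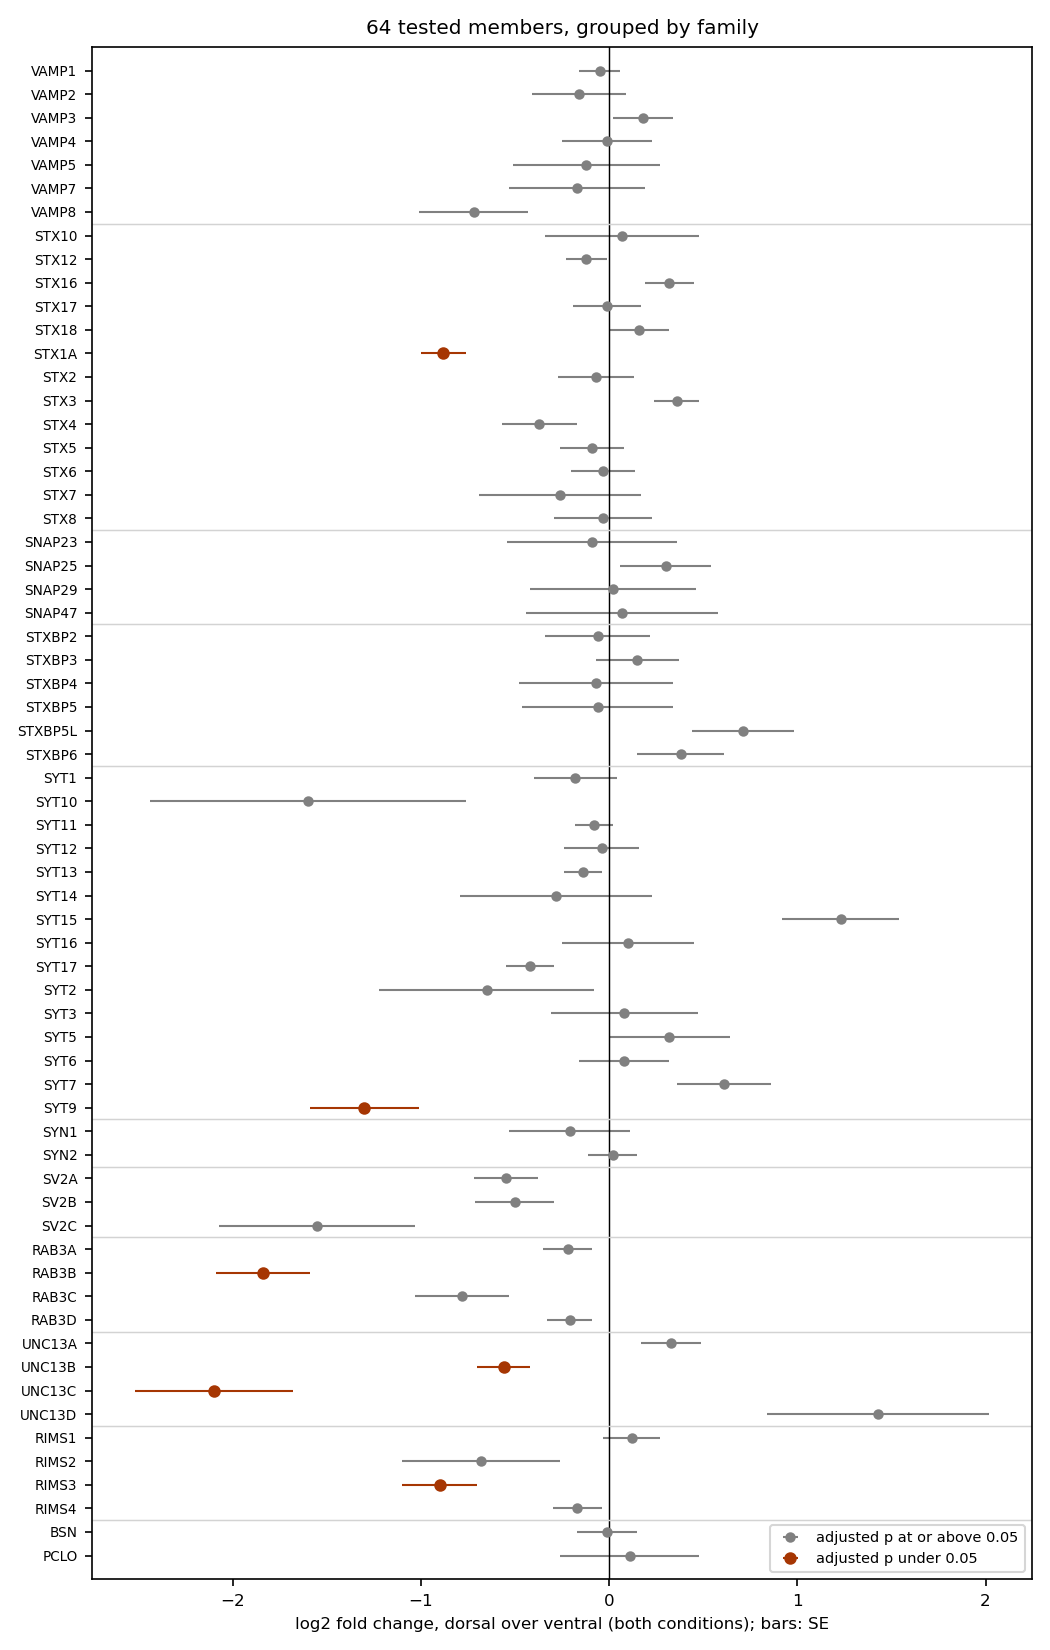
Log2 fold change of dorsal over ventral hippocampus, both conditions together, for 64 tested members in family order, with bars for the SE. The 6 called members, in red, all lie left of 0, between -2.1 and -0.56, and most others lie within 0.5 of 0.

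The size of that count depended on single libraries. It was 3 when any of the 6 dorsal libraries, ventral control 2, ventral stress 2 or ventral stress 3 was left out, 4 without ventral control 3, 5 without ventral stress 1 and 8 without ventral control 1. The count over all genes moved alike, from 803 to between 420 and 613 in the fits with 3 members, and to 777, 633 and 1091 in the other 3. STX1A and RAB3B kept their calls whichever of the 12 libraries was left out (highest edgeR adjusted p = 0.0152 and 0.0126), and UNC13C without 10 of them, while RIMS3, SYT9 and UNC13B kept theirs without 4, 2 and 1. Leaving out both end libraries of the within-group axis, ventral control 1 and 3, gave 5 calls.

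The SNARE proteins of the synapse itself showed 1 difference between regions. STX1A encodes a syntaxin of the presynaptic membrane. Dorsal control libraries held 74.8, 66.6 and 72.5 CPM and dorsal stress libraries 89, 84.9 and 73.8 CPM. In ventral tissue its values were 145.9, 161.4 and 110.7 CPM in control and 137.4, 156.4 and 137.4 CPM in stress. Every dorsal library was below every ventral library, and the log2 fold change was -0.88 ± 0.12 (SE, adjusted p = 0.0031), a 1.84-fold lower level.

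The partners of syntaxin in the complex did not pass. SNAP25 averaged 1653 ± 487.1 CPM in dorsal control, 1858 ± 572.5 in dorsal stress, 1298 ± 481.2 in ventral control and 1570 ± 280.8 in ventral stress (SD, n = 3 each), for a log2 fold change of 0.30 ± 0.24 (SE, edgeR adjusted p = 0.824). VAMP2, the main vesicle SNARE, had -0.16 ± 0.25 and VAMP1, the second neuronal isoform, -0.05 ± 0.11 (both edgeR adjusted p = 1). Groups overlapped widely for each of these 3 genes. Among the 7 VAMP genes 0 were called, and the largest departure was VAMP8, known from endosomes and secretory granules outside neurons, at -0.72 ± 0.29 (adjusted p = 0.276). Among the 14 tested syntaxins STX1A was the 1 called, and their median log2 fold change was -0.03. STX3, a plasma membrane syntaxin of polarized cells and neurons, had 0.36 ± 0.12 (adjusted p = 0.138) and STX16 of the trans-Golgi network 0.32 ± 0.13 (adjusted p = 0.295).

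Syntaxin-binding proteins gave 0 calls among 7. STXBP5L (tomosyn-2), which competes with VAMP2 for syntaxin and SNAP25, had the highest estimate of the family at 0.71 ± 0.27 (adjusted p = 0.241). Its dorsal values ran from 82.1 to 185.1 CPM and its ventral values from 43.1 to 117 CPM, so that the regions overlapped. STXBP6 (amisyn), another SNARE-binding regulator, had 0.38 ± 0.23 (adjusted p = 0.607).

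The largest fold changes were those of UNC13C and RAB3B, whose families act before the SNARE complex forms. Next came SYT10 (-1.6) and SV2C (-1.55), neither of them called. Over whole families the median log2 fold change was -0.11 for UNC13 and -0.5 for RAB3. UNC13C (Munc13-3) is a priming factor best known from the cerebellum. It was measured at 2.13, 4.88 and 3.67 CPM in dorsal control and at 2.69, 4.66 and 6.37 CPM in dorsal stress. The ventral control libraries held 8.36, 12.5 and 31.4 CPM and the ventral stress libraries 8.94, 15.4 and 26.8 CPM. All 6 dorsal libraries lay below all 6 ventral ones, ventral control 3 was 3.75-fold above ventral control 1, and the log2 fold change was -2.1 ± 0.42 (adjusted p = 0.0177), 4.29-fold lower in dorsal tissue. The call ended without dorsal control 3 (adjusted p = 0.0525) or dorsal stress 2 (0.0583).

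UNC13B (Munc13-2), which primes a subset of hippocampal synapses, was lower by a smaller factor. Its values were 55, 58.9 and 63.9 CPM in dorsal control and 71.4, 60.6 and 70.2 CPM in dorsal stress. Ventral control had 72.2, 106.7 and 111.2 CPM and ventral stress 93.3, 75.6 and 98.7 CPM. The gap between the highest dorsal and the lowest ventral library was narrow, from 71.4 to 72.2 CPM, and the log2 fold change of -0.56 ± 0.14 passed by little (adjusted p = 0.048). That call was lost without any library other than ventral control 1 (highest adjusted p = 0.146), and also with no filter (0.0739) or limma-voom (0.0607).

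UNC13A (Munc13-1), the priming factor of most excitatory synapses, stood on the other side of 0, at 0.33 ± 0.16 (adjusted p = 0.412), with dorsal libraries between 288.6 and 413.6 CPM and ventral ones between 209 and 352.4 CPM. UNC13D (Munc13-4), which serves granule release in blood cells, had the highest estimate of all members, 1.43 ± 0.59, but did not pass (adjusted p = 0.296). It ranged from 9.15 to 46.1 CPM in dorsal and from 2.32 to 21.4 CPM in ventral libraries, and ventral control 1 at 21.4 CPM exceeded 4 of the 6 dorsal libraries.

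RAB3B is 1 of 4 RAB3 GTPases, which sit on vesicles and bind RIM proteins. RAB3B counts came to 11.1, 19.3 and 16.7 CPM in dorsal control and 13.3, 18.1 and 18.7 CPM in dorsal stress. In ventral control the values were 38.6, 53.3 and 88.2 CPM and in ventral stress 44.3, 48.7 and 74.3 CPM. The lowest ventral library was at 38.6 CPM and the highest dorsal one at 19.3 CPM, and the log2 fold change of -1.84 ± 0.25 (adjusted p = 0.00288) equals a 3.57-fold lower level in dorsal tissue. All 4 RAB3 genes had negative estimates. RAB3C had -0.78 ± 0.25 (adjusted p = 0.129), RAB3D -0.21 ± 0.12 (adjusted p = 0.551) and RAB3A, the isoform found at most brain synapses, -0.22 ± 0.13 (adjusted p = 0.609), and none of these 3 passed.

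Of the RIM proteins, RIMS3 encodes a short form that lacks the RAB3-binding part of RIM1. Its levels were 36.3, 51.9 and 60.2 CPM in dorsal control and 32.6, 49.9 and 48.8 CPM in dorsal stress. The ventral control libraries had 75.2, 80.1 and 118.1 CPM, and those of ventral stress 72, 70 and 105.1 CPM. Dorsal and ventral libraries did not overlap, and the log2 fold change was -0.90 ± 0.20 (adjusted p = 0.0287). Its call was lost in 8 of the 12 fits with a library left out, those lacking dorsal control 1 or 2, any dorsal stress library, ventral control 2, or ventral stress 2 or 3 (adjusted p up to 0.074). RIMS1, the main scaffold of the active zone, had 0.12 ± 0.15, RIMS2 -0.68 ± 0.42 and RIMS4 -0.17 ± 0.13, none of them past the threshold. Bassoon and piccolo stood at -0.01 ± 0.16 and 0.11 ± 0.37 (both adjusted p = 1).

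**Figure D2:**
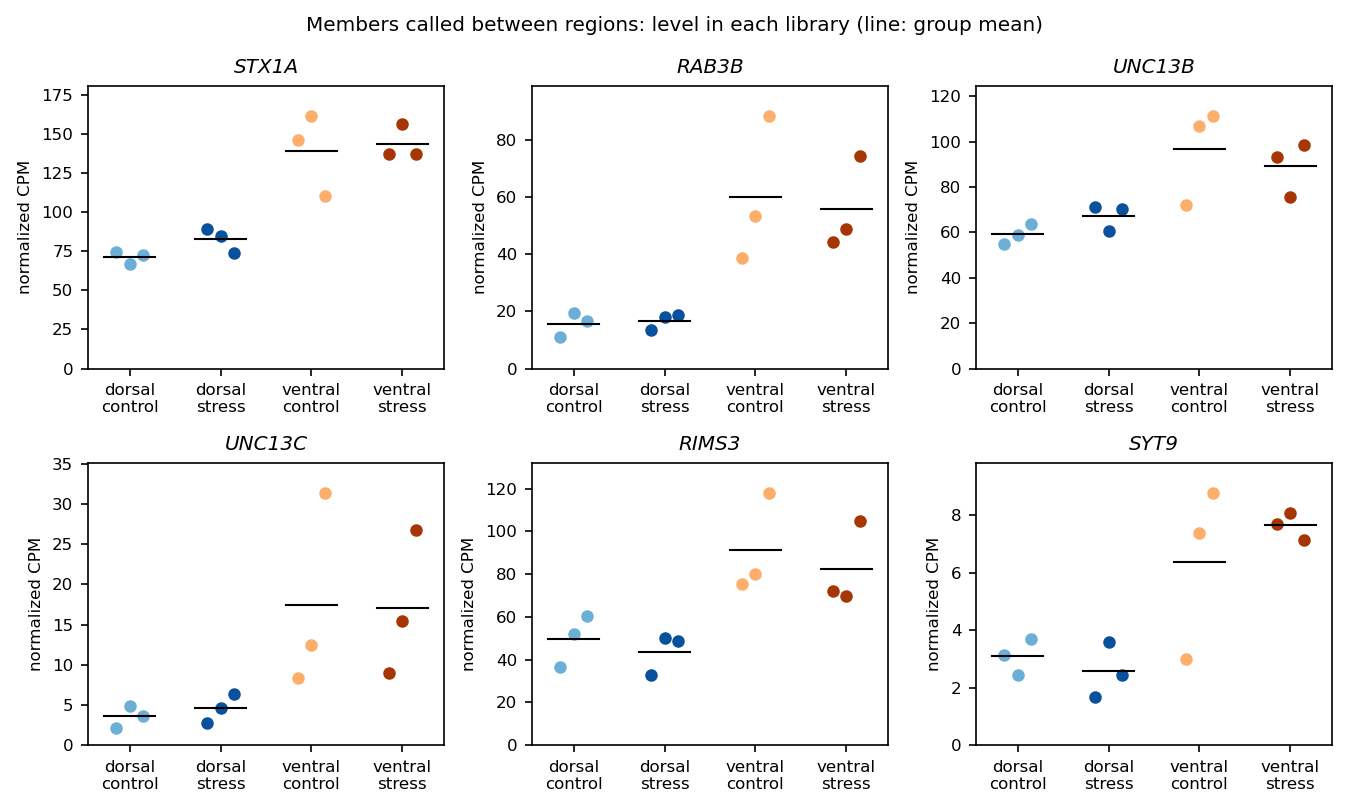
Normalized CPM in each of the 12 libraries for the 6 members called between regions, by group, with a line at each group mean. Dorsal libraries, in blue, lie below all ventral libraries, in orange and brown, for 5 genes, and for SYT9 ventral control 1 at 3 CPM lies among the dorsal values.

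The synaptotagmins gave 1 call among 15 tested members. SYT9 is a fast calcium sensor related to SYT1 and SYT2. It was counted at 3.15, 2.45 and 3.71 CPM in dorsal control and 1.69, 3.6 and 2.45 CPM in dorsal stress, which is 30 to 160 counts. Ventral control had 3, 7.39 and 8.79 CPM and ventral stress 7.7, 8.1 and 7.15 CPM. Ventral control 1 fell among the dorsal libraries, the other 5 ventral libraries were above all dorsal ones, and the log2 fold change was -1.30 ± 0.29 (adjusted p = 0.0296). The call was lost with limma-voom (0.0512) and without any library other than dorsal stress 2 or ventral control 1 (highest adjusted p = 0.0885).

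SYT1, the calcium sensor of fast release in forebrain neurons, averaged 991.3 ± 196.5 CPM in dorsal control, 1059 ± 295.9 in dorsal stress, 1098 ± 388.9 in ventral control and 1228 ± 302.2 in ventral stress (SD, n = 3 each), with a log2 fold change of -0.18 ± 0.22. SYT15 came nearest to the threshold without passing it, at 1.23 ± 0.31 (adjusted p = 0.0544), with dorsal libraries from 1.67 to 4.68 CPM and ventral ones from 0.711 to 1.82 CPM. RefSeq names this gene SYT15B. SYT7, a high-affinity sensor of slow release and facilitation, had 0.61 ± 0.25 (adjusted p = 0.28) and SYT17 -0.42 ± 0.13 (adjusted p = 0.112). SYT10 had -1.6 ± 0.84 (adjusted p = 0.49) on 2 to 147 counts per library. For SYT2, which forms the fast calcium sensor of many interneurons, only 5 to 107 counts were found per library, and its log2 fold change was -0.65 ± 0.57.

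Vesicle proteins that regulate the supply of vesicles gave 0 calls. The 3 SV2 genes encode membrane glycoproteins of the vesicle, of which SV2A binds the antiepileptic drug levetiracetam. All 3 estimates were negative and had an unadjusted p under 0.05, but none passed: SV2A -0.55 ± 0.17 (adjusted p = 0.121), SV2B -0.50 ± 0.21 (0.328) and SV2C -1.55 ± 0.52 (0.153). SV2C reached 23.4 CPM in ventral control 3 and 20.9 in ventral stress 3, against 2.07 to 8.05 CPM in the other 10 libraries. Of the synapsins, which tether vesicles in the reserve pool, SYN1 had -0.21 ± 0.32 and SYN2 0.02 ± 0.13 (both adjusted p = 1).

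Ratios of 2 members within a library do not depend on how libraries are scaled. They are given as a description without a test, since the called genes were picked for their difference, and 5 of them were each set beside a well-studied neuronal gene of their family. The log2 ratio of RAB3B to RAB3A counts lay between -4.74 and -3.87 in dorsal libraries and between -3.46 and -1.66 in ventral libraries, a mean shift of -1.59 with an SD within groups of 0.62. UNC13C against UNC13A ran from -7.45 to -5.93 and from -5.15 to -3.4 (shift -2.35, SD 0.75), and UNC13B against UNC13A from -2.76 to -2.18 and from -2.04 to -1.12 (shift -0.89, SD 0.3). RIMS3 against RIMS1 had the smallest spread, with -1.41 to -0.61 against -0.24 to 0.21 (shift -1.04, SD 0.19). For SYT9 against SYT1 the regions overlapped, at -9.12 to -7.94 and -8.04 to -6.94 (shift -1.11, SD 0.48).

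**Figure D3:**
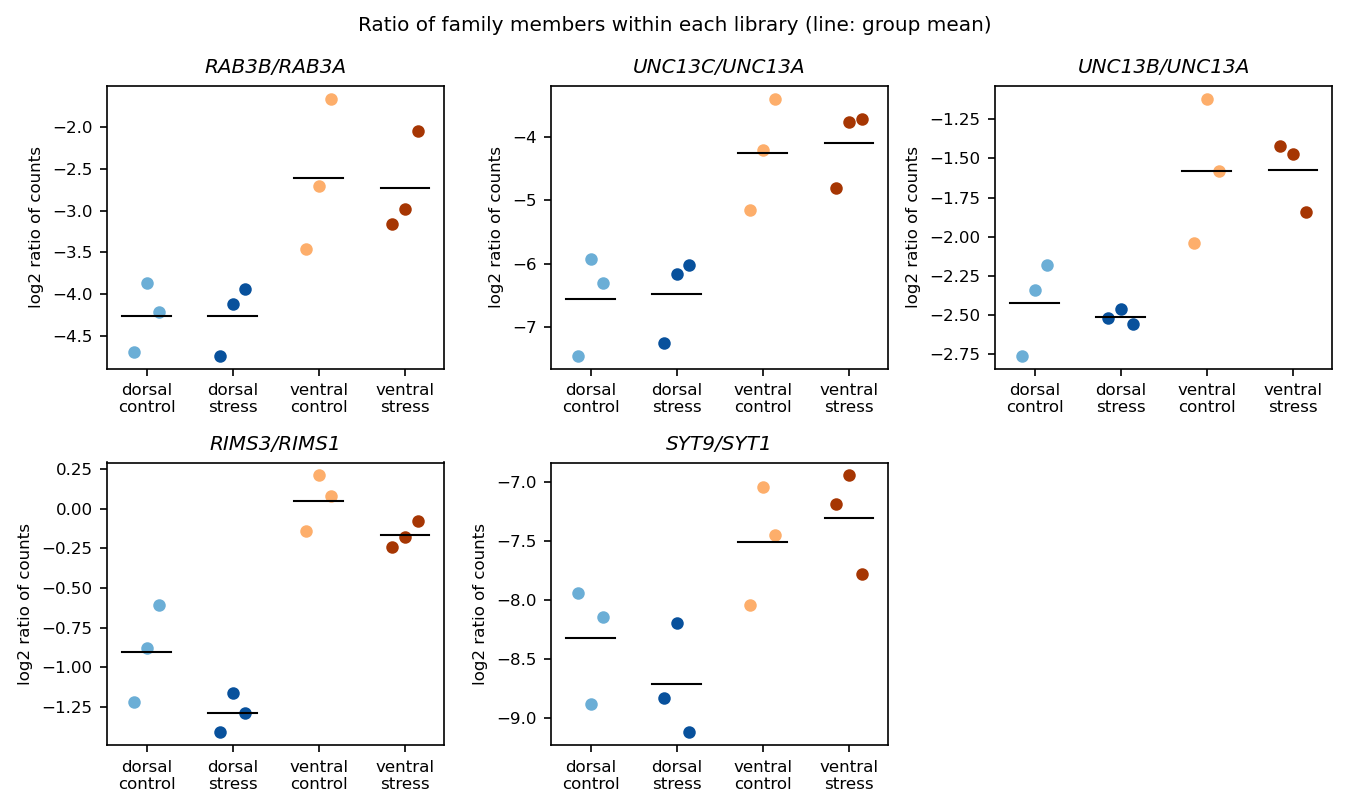
Log2 ratio of the counts of 2 genes of a family within each library, by group, with a line at each group mean. In 4 of the 5 ratios all dorsal libraries lie below all ventral libraries, and for SYT9/SYT1 they overlap between -8.04 and -7.94.

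Within single conditions the same contrast had fewer calls. In control ewes 2 members were called, STX1A (-0.97 ± 0.17, adjusted p = 0.0307) and RAB3B (-1.94 ± 0.35, adjusted p = 0.0324), which is 3.03% of the members against 1% of all genes (0.247% higher and 0.753% lower). At an unadjusted p under 0.05 there were 13 members (19.7%) against 8.67% of all genes. Neither call survived without dorsal control 1, 2 or 3, dorsal stress 2, ventral control 2 or ventral stress 1. RAB3B alone also lost its call without dorsal stress 3, ventral control 3 or ventral stress 2, and STX1A alone without ventral stress 3. In stressed ewes edgeR called 0 members, with 8 (12.1%) at an unadjusted p under 0.05 where 7.86% of all genes were, against 0.444% of all genes called (0.0842% higher and 0.359% lower in dorsal tissue), and DESeq2 called 4. The log2 fold changes in stressed ewes were -0.80 ± 0.17 for STX1A (edgeR adjusted p = 0.0858), -1.74 ± 0.35 for RAB3B (0.0742), -1.91 ± 0.59 for UNC13C (0.26), -0.91 ± 0.28 for RIMS3 (0.257), -1.57 ± 0.42 for SYT9 (0.159) and -0.40 ± 0.20 for UNC13B (0.722). The interaction test of the difference between conditions passed for none of these 6 genes (all edgeR adjusted p = 1).

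Separation of single libraries was counted as well. Over all 12 libraries the regions did not overlap for 5 members (7.58%), all lower in dorsal tissue, against 4.9% of all genes (1.98% higher and 2.93% lower). In control ewes 13 members (19.7%) did not overlap, 11 lower and 2 higher in dorsal tissue, against 11.7% of all genes (5.44% higher and 6.22% lower). In stressed ewes 11 members (16.7%) did not, 8 lower and 3 higher, against 13.7% (6.08% higher and 7.67% lower). STX1A, RAB3B, UNC13B, UNC13C, RIMS3, SYT17 and RAB3D were separate and lower in dorsal tissue in both conditions, and STX3 was separate and higher in both.

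Other genes of the release pathway, gathered in a list of 50, gave 5 calls. Of the 46 tested, dorsal tissue had less of 4 and more of 1, against 3.07% and 1.44% of all genes, and their median log2 fold change was -0.07. The lower ones were the complexin CPLX3, which clamps and promotes fusion (-4.03 ± 0.32), the vesicular glutamate transporter SLC17A6 (-3.08 ± 0.52), the vesicle zinc transporter TMEM163 (-1.46 ± 0.22) and the calcium sensor DOC2B (-0.69 ± 0.15). The higher one was CPLX2, the main complexin of excitatory forebrain neurons (0.90 ± 0.21). Their edgeR adjusted p lay between 0.000259 and 0.0368. SLC17A7, the glutamate transporter of most hippocampal principal cells, had 0.40 ± 0.15 (adjusted p = 0.209), and SLC32A1, the vesicular GABA transporter, -0.57 ± 0.23 (adjusted p = 0.28).

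Marker genes of cell types moved with region as well, and in bulk tissue fewer cells of a type cannot be told apart from less RNA per cell. Of 7 tested interneuron markers 4 were lower and 0 higher in dorsal tissue, and the summed level of the 8 listed genes was 285.2 to 328.5 CPM in dorsal against 398.6 to 518.4 CPM in ventral libraries. The 4 were LHX6 (-0.93 ± 0.13), NDNF (-1.18 ± 0.19), VIP (-1.11 ± 0.27) and GAD1 (-0.51 ± 0.10). All 5 meningeal markers were lower too, with a summed level of 113.4 to 181.8 CPM against 294.8 to 502.9 CPM. Choroid plexus markers went the other way, with 3 of 6 called higher in dorsal tissue and sums of 381.5 to 2840 CPM against 51.8 to 423.5 CPM. All 6 oligodendrocyte markers had positive estimates (0.66 to 0.92), 5 with an unadjusted edgeR p under 0.05 and 1 called. Their sums were 6478 to 10641 CPM in dorsal against 3689 to 8139 CPM in ventral libraries. Of 4 subiculum markers 3 were lower in dorsal tissue (21.4 to 36.8 CPM against 86.6 to 142.2 CPM), as were 1 of 4 tested dentate granule cell markers (19.1 to 51.5 CPM against 28 to 53.7 CPM), 2 of 5 striatal and 1 of 4 thalamic markers, while astrocyte, microglial, endothelial and pituitary markers gave 0 calls between regions. The dentate and striatal lists ran in both directions. In the dentate list DSP was called (-1.92 ± 0.38), and 1 of the 4 estimates was positive, PROX1 at 1.32 ± 0.75. In the striatal list DRD1 (-3.53 ± 0.32) and PENK (-3.42 ± 0.26) were called. There 2 of 5 estimates were positive, DRD2 at 0.75 ± 0.44 and PPP1R1B at 0.56 ± 0.22, neither called. Of 5 excitatory neuron markers 2 were higher and 1 was lower. Of 5 broad neuronal markers 0 were called, and their sum was 2618 to 3652 CPM in dorsal and 2473 to 4000 CPM in ventral libraries. At an unadjusted edgeR p under 0.05 there were 2 of them, in opposite directions. ELAVL4 was at -1.16 ± 0.3 (edgeR adjusted p = 0.0605) and NEFL at 0.31 ± 0.13 (0.308). With the mean log2 CPM of the interneuron, meningeal or choroid plexus list as a covariate, 0 members and 0 of all genes were called. With the choroid plexus or meningeal score the estimates of all 6 called members stayed negative with wider errors, for RAB3B -1.81 ± 0.82 and -2.28 ± 0.8 and for STX1A -0.72 ± 0.4 and -0.4 ± 0.36. With the interneuron score 5 of them turned positive, RAB3B to 1.04 ± 0.82, while STX1A was at -1.42 ± 0.58. None of these log2 scores overlapped between regions, although the summed choroid plexus levels above did. Region and these scores therefore cannot be told apart here. The share of the other lists in the members' differences was not tested.

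The second comparison was chronic stress against control. In edgeR 0 of 66 members were called in dorsal tissue, in ventral tissue, over both regions or for the difference between regions, and 0% of all genes were called in each of these 4 comparisons (at an unadjusted p under 0.05, 0.854%, 0.797%, 1.73% and 0.258% of them). The number of members at an unadjusted p under 0.05 was also 0 in all 4, and DESeq2 and limma-voom called 0 members as well. The median log2 fold change of stress over control was 0.09 in dorsal and 0.01 in ventral tissue, against 0.01 and -0.03 over all genes. Estimates lay within 0.5 of 0 for 60 members in dorsal and 64 in ventral tissue, with a median SE of 0.34 in both. For the 6 genes that differed between regions the stress estimates ran from -0.26 (SYT9) to 0.36 (UNC13C) in dorsal and from -0.15 (RIMS3) to 0.26 (SYT9) in ventral tissue. Dorsal control libraries stood apart in the summed level of 4 pituitary genes (PRL, GH, CGA and POMC), at 109.6 to 148.1 CPM against 2.24 to 10.5 CPM in dorsal stress. In ventral tissue the sums were 6.05 to 98 CPM in control and 3.25 to 23.9 CPM in stress. All 4 had an unadjusted p under 0.05 for stress in dorsal tissue, with a median log2 fold change of -4.04 and 0 calls (edgeR adjusted p = 1), and their part in the members' values in dorsal control was not tested.

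The members with the smallest p were SYT17, SYT16 and STX3 in dorsal tissue. SYT17, a synaptotagmin relative, stood at 80.9, 66.9 and 64.8 CPM in dorsal control and 99.9, 78.8 and 80.3 CPM in dorsal stress, and in ventral tissue at 81.7, 114.5 and 97.4 CPM in control and 123.9, 108.4 and 103.7 CPM in stress. The groups overlapped in both regions, with log2 fold changes of 0.28 ± 0.18 and 0.19 ± 0.18, and over both regions 0.24 ± 0.13 (edgeR adjusted p = 1). SYT16 had 0.66 ± 0.50 in dorsal tissue. STX3 had -0.22 ± 0.17 in dorsal and -0.17 ± 0.17 in ventral tissue, and -0.19 ± 0.12 over both.

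In ventral tissue the smallest p belonged to STXBP6 (0.41 ± 0.32), SYT17 and SYT10 (-1.19 ± 1.13). The SYT10 estimate rested on ventral control 3, which held 147 counts (4.11 CPM) where no other library held more than 39, and without it the estimate turned to 0.79 ± 1.11. Stress and control libraries did not overlap for 1 member in dorsal tissue, STX6 (1.52% of members against 5.13% of all genes, 2.38% higher and 2.75% lower in stress), and for 1 in ventral tissue, SYT13 (1.52% against 2.86%, 1.38% higher and 1.49% lower). STX6 was at 93.1 to 98.6 CPM in dorsal control and 99.2 to 120.1 CPM in dorsal stress. The interaction estimates with the smallest p were SYT10 (2.12 ± 1.66), UNC13A (0.36 ± 0.32) and UNC13B (0.30 ± 0.28), all with an edgeR adjusted p of 1.

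**Figure D4:**
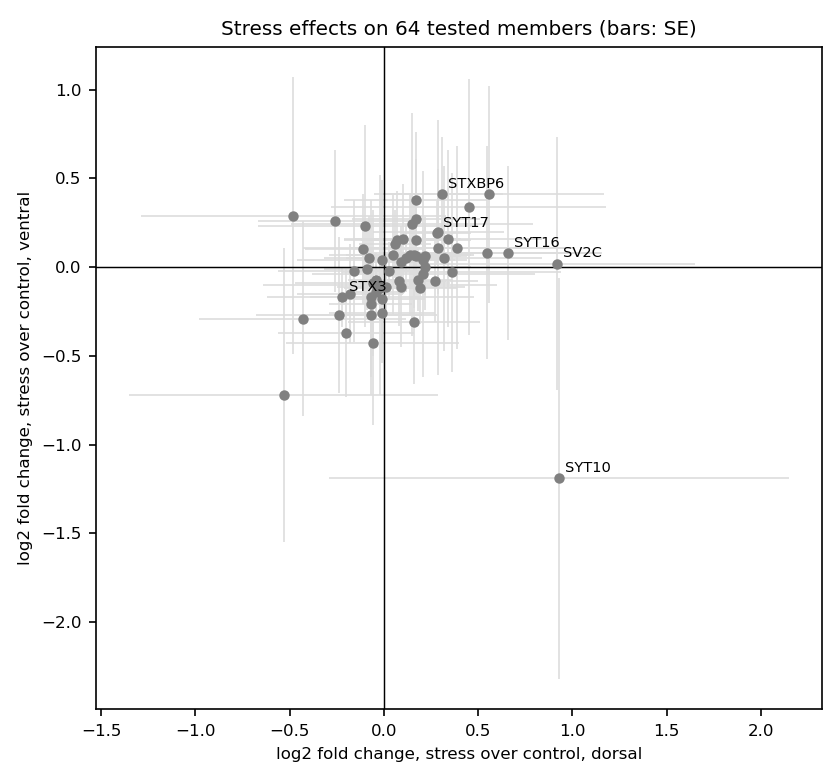
Log2 fold change of stress over control in dorsal (x axis) and ventral hippocampus (y axis) for 64 tested members, with bars for the SE. Most points lie within 0.5 of 0 on both axes, and SYT10, with the widest bars, stands apart at 0.93 and -1.19.

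Libraries of the same group differed widely. The median SD within groups on the log2 scale was 0.43 over the members and 0.5 over all genes. The members did not vary together, and 2 sets moved in opposite directions along the within-group axis. The members named for this, like VAMP8, STX16, STX6 and SYT13 above, were chosen after their values were seen. PCLO was at 41.9 CPM in ventral control 1 and 133.8 CPM in ventral control 3, a 3.2-fold difference, and RIMS2 was 4.88-fold, STX7 4.16-fold and SNAP47 6.29-fold higher in ventral control 3. SYN1 went from 853.3 to 302.4 CPM, UNC13D from 21.4 to 2.32 CPM and SNAP29 from 37.3 to 5.49 CPM. Between these 2 libraries of one group 20 members were at least 2-fold higher and 13 at least 2-fold lower in ventral control 3, which is 50% of the members against 52.7% of all genes.

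The end libraries of the other groups on this axis differed less, and since they were picked by the axis their opposition is a description. Dorsal stress 3 against dorsal stress 1 had 13 members at least 2-fold higher and 6 at least 2-fold lower (28.8% against 35% of all genes), with PCLO at 136.8 and 50 CPM and SYN1 at 282.7 and 652 CPM. Dorsal control 2 against dorsal control 1 had 9 and 6 (22.7% against 25.1%), and ventral stress 3 against ventral stress 2 had 12 and 5 (25.8% against 29.5%). The summed level of all 69 members changed little over the 12 libraries, from 10049 to 12182 CPM, a 1.21-fold range. With the within-group axis as a covariate 26 members were called between regions, 10 higher and 16 lower in dorsal tissue, including all 3 SV2 genes, UNC13D and STXBP5L, beside 3761 of all genes. That axis was estimated from the same values that were then tested.

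**Figure D5:**
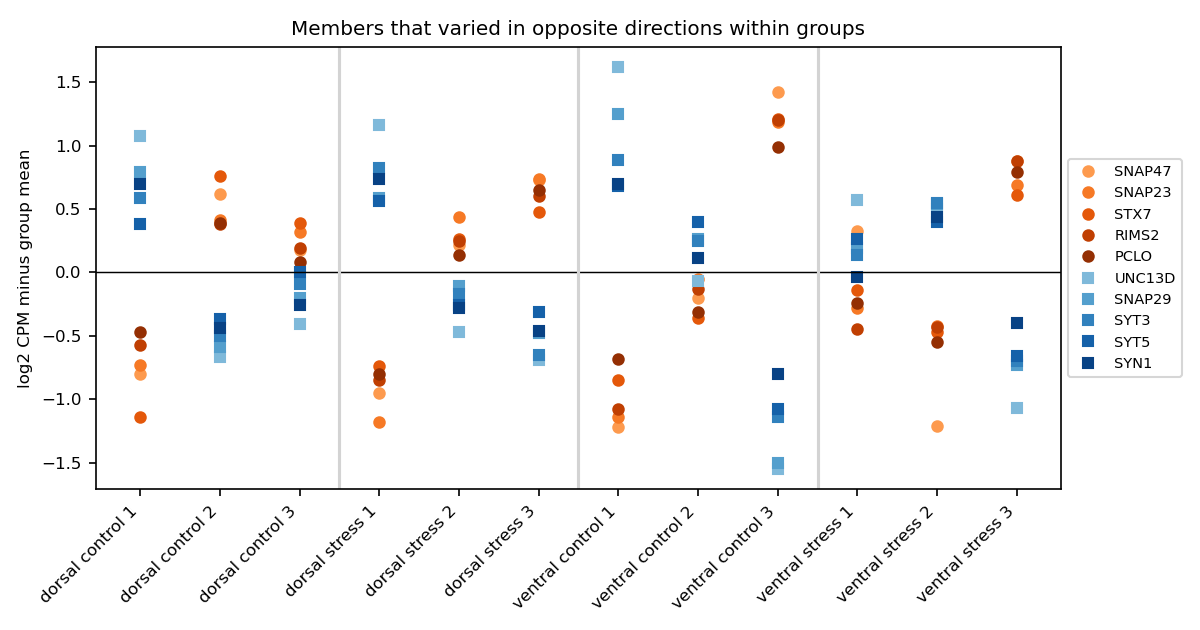
Deviation of log2 CPM from the group mean in each library for 10 members chosen after their values were seen. PCLO, RIMS2, STX7, SNAP23 and SNAP47 (circles) are on the other side of 0 from SYN1, SYT3, SYT5, SNAP29 and UNC13D (squares) in most libraries. Ventral stress 1 is mixed, UNC13D (-0.07) is on the side of the circles in ventral control 2, and SYT5 is at 0 in dorsal control 3. The 2 sets lie farthest apart in ventral control 1 and ventral control 3.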

How the data were processed

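Gene counts for 12 TruSeq stranded mRNA libraries were deposited by the authors as raw counts per gene. Per the submitters' processing notes the tools included TopHat2 2.1.1 with Bowtie2 2.3.5.1 and featureCounts 2.0.0, besides bcl2fastq 2.20, SAMtools 1.9 and FastQC. Not given in the sources used here are the genome build, annotation, strand setting and treatment of multi-mapped reads, so that reads shared by close paralogs could have been split or dropped.

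The counts were fitted in edgeR 4.0.16 (R 4.3.3; filterByExpr by group, TMM scaling, robust quasi-likelihood) with 1 mean for each of the 4 groups over all 12 libraries, and p-values were adjusted by Benjamini-Hochberg over all 17806 genes tested. Genes with an adjusted p under 0.05 count as called. CPM are TMM-normalized. Alternatives were RLE scaling, no filter, 1 CPM in 3 libraries, DESeq2 1.42.0, limma-voom (limma 3.58.1), a replicate block, the first residual factor, thinned counts and each library left out. Fits without both ends of that factor, or with marker scores, were added after seeing the data.

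Members were all genes whose symbol begins with SYT, SYN, STX, STXBP, VAMP, SNAP or RIMS and a digit, and RAB3A to D, UNC13A to D, SV2A to C, BSN and PCLO. Named were members called, the 5 highest and 5 lowest between regions, the 3 of smallest p for stress, and core release genes. Of 69 identifiers 68 matched RefSeq. SYN3, SYT4 and SNAP91 carry placeholder names in the table and are not members. Members and lists were chosen with earlier results of these data known. No sequence is shown. Single values of 2 tested members are not reported here, though both stay in every count. Deviations of same-numbered control and stress libraries, which hold different ewes, correlated at 0.71, 0.32 and 0.28 in dorsal tissue. In ventral tissue the correlations were 0.24, 0.31 and 0.79, and 4 of 6 libraries correlated best with their own number in each region. Dorsal stress and ventral control libraries, from different ewes and regions, also gave 4 of 6 (0.72, -0.1 and 0.72). This check therefore does not show what a number marks, and the labels do not say.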

Additional observations from a re-analysis of the deposited data

How the results depend on the processing

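Between regions over both conditions the 6 member calls were 6 with RLE scaling, 1 CPM in 3 libraries or thinned counts, 5 with no filter and 4 with limma-voom. DESeq2 gave 12, the first residual factor 26 and fits without ventral control 1 and 3, 5. Each of the choroid plexus, interneuron and meningeal scores gave 0 members and 0 of 803 genes. With the interneuron score the log2 estimates changed sign for RIMS3 (1.27 ± 0.7), RAB3B (1.04 ± 0.82), UNC13B (0.55 ± 0.6), UNC13C (2.43 ± 1.54) and SYT9 (0.17 ± 1.38), and STX1A stayed at -1.42 ± 0.58 (edgeR adjusted p = 0.138). With the choroid plexus score the 6 lay between -2.64 (UNC13C) and -0.37 (UNC13B), and with the meningeal score between -3.25 (UNC13C) and -0.34 (UNC13B). Leaving out 1 library gave 3 to 8 members. In control ewes the 2 calls were 1 with no filter, 4 with DESeq2, 19 with the residual factor, 0 without both end libraries and 0 to 3 with 1 library left out. In stressed ewes the 0 calls were 4 with DESeq2, 14 with the residual factor, 1 without both end libraries and 0 to 2 with 1 library left out. For stress over both regions the residual factor gave 3 calls (STX7 0.63, STX8 -0.26, STXBP6 0.36). In ventral tissue the stress estimate of SYT17 was -0.03 without both end libraries, and that of SYT10 was 0.36 with limma-voom and -1.77 to 0.79 with 1 library left out. The causes were not tested.

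Over all genes, the 803 calls between regions were 808 with RLE scaling, 786 with 1 CPM in 3 libraries and 769 with thinned counts. They were 689 with no filter, 767 with limma-voom and 716 without both end libraries. The calls were 1558 with DESeq2, 3761 with the residual factor and 420 to 1091 with 1 library left out. The 178 in control ewes were 728, 2003 and 2 to 319, and 46 without both end libraries. The 79 in stressed ewes were 580, 1589 and 1 to 159, with 29 by limma-voom and 143 without both end libraries. For stress, DESeq2 called 1 gene in dorsal, 1 in ventral tissue and 14 over both regions, and the residual factor 409 over both.

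With the replicate block, 13 members were called between regions over both conditions, 4 in control and 4 in stressed ewes, and 1375, 440 and 314 genes. Same-numbered libraries of the regions correlated at 0.72, -0.12 and 0.37 in control and 0.21, -0.23 and 0.76 in stress, and 3 of 6 correlated best with their own number in each, so the numbers were not taken as pairs between regions. For stress the block changed no call, with 0 members and 0 genes in all 4 comparisons.

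Low counts limit SYT10, with 2 counts in 2 libraries, and SYT2.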
